A study of Mus musculus with 46 samples.

Results

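BRM014, an inhibitor of the ATPase activity of SMARCA2 and SMARCA4, was compared with control in mouse bone marrow-derived macrophages (BMDMs) after 4 hr of lipid A. The sample labels define the comparison, and it holds 3 of the 46 samples of the series: 2 BRM014 libraries and 1 control library. The deposited column for the other 4 hr control repeats the first in all 24537 genes, so the control was used once (n = 1) and its error was taken from the other groups of the experiment. Of 11531 genes tested, 3382 rose with BRM014 (29.3%) and 1889 fell (16.4%).

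SMARCA4 (BRG1) and SMARCA2 (BRM) are the alternative ATPase motors of the SWI/SNF, or BAF, chromatin remodelling complexes, which use ATP to move or evict nucleosomes at enhancers and promoters. Lipid A is the part of bacterial lipopolysaccharide (LPS) that the receptor TLR4 senses. TLR4 switches on a first set of genes through NF-kB, AP-1 and IRF3, and later genes that need new protein synthesis, autocrine type I interferon or nucleosome remodelling.

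Experiment 1 has control cells, labelled WT, at 0, 1 and 4 hr of lipid A. It also has cells treated with BRM014, ACBI1 or BRDK98, all at 4 hr of lipid A. ACBI1 is a degrader of SMARCA2, SMARCA4 and PBRM1, and for BRDK98 there is only a code name. Experiment 4 supplied its own BRM014 and control libraries at 20 and 60 min of lipid A, with controls again labelled WT. Its fit held 18 libraries, which include 0 min controls and cells with ACBI1 or BRDK98 at both times. Control cells of experiment 2 (Arid1a f/f, LPS for 0, 1 and 4 hr) and experiment 3 (Pbrm1 f/f, lipid A for 0 and 4 hr) served to sort genes by their response and to check the control. Each of these groups has 2 libraries apart from the 4 hr control of experiment 1. The dose and time of addition of BRM014 are not given in the sources used here, and no unstimulated BRM014 sample entered the analysis, so effects on the resting state and on the response cannot be told apart. Nothing in the labels says that replicates came from separate animals or cultures, and p-values then measure only the spread between these samples, which may be technical.

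The control library held 8787291 exonic reads and the BRM014 libraries 8886272 and 10880770. At those depths 3 reads on a 2 kb transcript equal 0.269, 0.253 and 0.208 TPM (the depth- and length-scaled unit of the deposited tables), and these floors cover counting error only. Levels below are TPM. Changes are BRM014 minus control on the log2(TPM + 1) scale ± standard error, which understates the change of low genes. A gene rose or fell where limma called it at an adjusted p below 0.05 with the same sign on deposited TPM and on TPM scaled by a median ratio. Scaling moved the median of all genes from 0.43 to 0.06, and the 5570 higher and 1889 lower genes on deposited TPM became 3382 and 3202, so 74.7% and 51.4% of calls were higher. With voom on reads recovered from TPM 2386 genes were higher and 3104 lower.

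Over all tested genes 16.4% fell and 29.3% rose at 4 hr. Of 10 macrophage-defining markers none was near 0, and 3 fell, 1 rose and 6 did neither. Those that fell were Fcgr1, the high-affinity Fc receptor gene, at 465 TPM in the control and 116 and 139 TPM with BRM014, the efferocytosis receptor gene Mertk at 147 TPM against 30.03 and 34.3 TPM and Spi1, which codes the lineage factor PU.1, at 533 TPM against 133 and 113 TPM. The LPS co-receptor gene Cd14 rose and was at 825 TPM against 1807 and 1762 TPM. Csf1r, the receptor of the macrophage growth factor, was at 307 TPM against 448 and 479 TPM and passed on deposited but not on scaled TPM (0.10), and Adgre1, which codes F4/80, was at 434 TPM against 506 and 555 TPM and passed on neither scaling. Granulocyte markers summed to 21.6 TPM in the control and 52.9 and 43.3 TPM with BRM014, with Ly6g and Elane at 0, and 1 of 5 tested rose. Lymphocyte markers summed to 4.69, 3.12 and 2.37 TPM with Cd3e at 0, and 1 of 2 tested fell. Dendritic cell markers summed to 5.81, 10.4 and 10.1 TPM with Flt3 at 0, and of 2 tested 1 rose and 1 fell. They went opposite ways, with Xcr1 at 2.02 TPM against 9.18 and 9.11 TPM and Kmo at 3.33 TPM against 0.816 and 0.28 TPM. Stromal and endothelial markers summed to 16.5, 1.8 and 1.88 TPM. Most of that control sum was the VEGF receptor gene Kdr, at 13.9 TPM against 0.218 and 0.256 TPM, while the endothelial cadherin gene Cdh5 was at 0.587 TPM against 0.595 and 1.08 TPM. Erythroid and mast cell markers were at or near 0. The part of other cells in the results was not tested.

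The genes of the inhibited enzymes did not pass on both scalings. Smarca4 (0.57 ± 0.11, adjusted p = 0.001266 on deposited TPM) was at 45.5 TPM in the control and 66.5 and 69.5 TPM with BRM014, and its difference was 0.08 after median scaling. Smarca2 (0.19 ± 0.17, adjusted p = 0.3685) was at 5.61 TPM against 6.49 and 6.55 TPM. An inhibitor of the ATPase need not change these transcripts, so they do not check the labels.

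The promoters of 4 strongly changed genes are shown first. CpG is the dinucleotide that is dense in CpG-island promoters. Across all genes the share of promoters with at most 5 CpG differed with the direction of change, while the median number differed little. Mmp13 (collagenase 3, chr9:7272314-7272513, plus strand) and Fpr1 (a formyl peptide receptor, chr17:17883940-17884139, minus strand) fell. Srxn1 (sulfiredoxin, chr2:152105324-152105523, plus strand) and Rcan1 (a calcineurin inhibitor, chr16:92400079-92400278, minus strand) rose. Each line gives the 200 bases before the RefSeq gene start in build GRCm38.p6, 5′ to 3′, with CpG in capitals. These stretches hold 1, 0, 20 and 9 CpG. They were chosen to show that difference, and other strongly changed genes go against it, with values given at the end.
Mmp13: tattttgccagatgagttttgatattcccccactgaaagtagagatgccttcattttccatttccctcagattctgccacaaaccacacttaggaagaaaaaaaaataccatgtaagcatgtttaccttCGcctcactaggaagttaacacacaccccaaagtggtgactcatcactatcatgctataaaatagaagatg
Fpr1: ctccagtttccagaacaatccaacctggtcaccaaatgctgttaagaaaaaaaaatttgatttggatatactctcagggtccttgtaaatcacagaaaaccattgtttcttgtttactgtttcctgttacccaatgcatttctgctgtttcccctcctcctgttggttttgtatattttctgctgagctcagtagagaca
Srxn1: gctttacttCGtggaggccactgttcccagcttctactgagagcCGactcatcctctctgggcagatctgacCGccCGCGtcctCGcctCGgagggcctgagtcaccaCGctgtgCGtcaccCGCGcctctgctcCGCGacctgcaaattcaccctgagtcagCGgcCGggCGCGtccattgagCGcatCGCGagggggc
Rcan1: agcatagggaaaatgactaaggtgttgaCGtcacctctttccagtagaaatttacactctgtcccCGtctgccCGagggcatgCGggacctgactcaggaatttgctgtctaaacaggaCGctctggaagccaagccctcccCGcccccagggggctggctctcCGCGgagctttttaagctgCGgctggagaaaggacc

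Acute phase, antimicrobial and matrix genes were among the 15 largest falls. Saa3, an acute phase protein gene, was at 8254 TPM in the control and 41.1 and 52.6 TPM with BRM014, and the 2 resting libraries were at 23.4 and 58.8 TPM (-7.44 ± 0.47, adjusted p = 2.295e-05). Nos2, the inducible nitric oxide synthase gene, was at 501 TPM against 7.75 and 9.31 TPM, still above its resting 0.21 and 0.127 TPM. Mmp13 was at 3394 TPM against 21.7 and 28.4 TPM, with 19.8 and 15.7 TPM at rest. The BRM014 libraries lay far below the control in all 3 genes and overlapped the resting libraries in Saa3. Edn1, the endothelin gene, was at 217 TPM against 2.93 and 2.34 TPM and had no read at rest. Its BRM014 libraries stayed above the resting libraries.

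Several of the 15 ended below the resting level. Fpr1 was at 61.9 TPM in the control and 0.128 and 0.105 TPM with BRM014, which is 455 reads against 1 and 1, with 4.82 and 3.29 TPM at rest. The control to BRM014 ratio was 536 with an exact 95% counting interval from 147 to 4440. Its family member Fpr2 was at 167 TPM against 0.783 and 2.04 TPM, with 13.4 and 8.4 TPM at rest. Formyl peptide receptors guide phagocytes towards bacterial peptides. Slfn1, a Schlafen gene, was at 192 TPM against 1.73 and 1.42 TPM (resting 5.68 and 4.25 TPM), and Ifit1bl1, of an interferon-induced family, at 428 TPM against 5.42 and 9.92 TPM (resting 100.4 and 55.1 TPM). The nucleoside transporter gene Slc28a2 was at 129.7 TPM against 1.35 and 1.86 TPM, with 10.02 and 6.73 TPM at rest. The BRM014 libraries of all 5 genes lay below both resting libraries.

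Set against resting cells, 3010 of all tested genes (26.1%) were higher with BRM014 at 4 hr and 4717 (40.9%) lower. Among the 15 largest falls, Slfn1, Fpr2, Serpina3g, Fpr1, Fabp3, Ifit1bl1 and Slc28a2 were lower than at rest, Saa3, Cfb and AW112010 did not pass, and Mmp13, Edn1, Nos2 and Lipg were higher. Serpina3g, Fabp3 and Fpr1 rest on few BRM014 reads (4, 9 and 2 in all). Counting used both strands, so reads of overlapping genes could be mixed. The genes with an annotated overlap are Fpr2, Edn1, Cfb and Fabp3 here and, among the other genes described, Csf1r, Sqstm1, Pdxk, Rassf5, Tmem267, Kdm6b, Dusp5, Jun, Il27, Cxcl10, Gbp4, Gbp6, Fcgr2b, Maf, Cp, Ncf1, Nhp2, Ncl, Ezh2, Smarca4 and Smarca2.

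**Figure D1:**
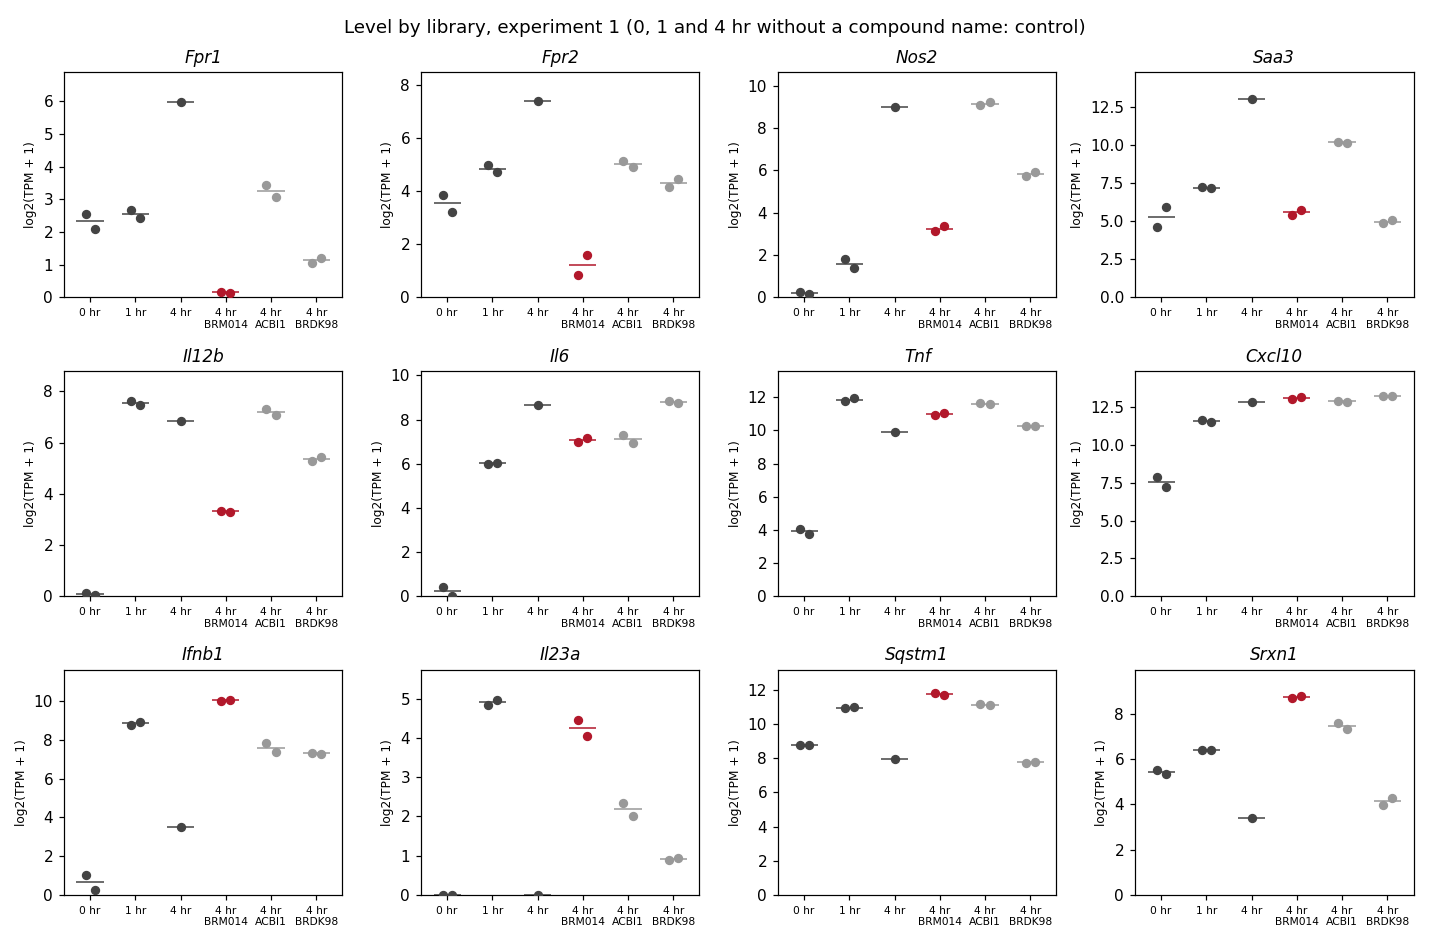
Level of 12 genes in each library of experiment 1 as log2(TPM + 1), one point per library with a line at the group mean; control libraries are dark, BRM014 red, and ACBI1 and BRDK98 grey. The BRM014 libraries lie below rest for Fpr1 (0.128 and 0.105 against 4.82 and 3.29 TPM) and above the 4 hr control for Ifnb1 (1005 and 1073 against 10.5 TPM).

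Among the largest rises, the interferon gene Ifnb1 was at 10.5 TPM in the control and 1005 and 1073 TPM with BRM014 (6.50 ± 0.30, adjusted p = 1.298e-06), and at 434 and 478 TPM in the 1 hr control. The BRM014 libraries thus lay above the 4 hr and the 1 hr controls. Il23a, a subunit of interleukin 23, had no read in the 4 hr control and 21.1 and 15.6 TPM with BRM014, at least 46.1-fold higher than the floor of 3 reads in that library (0.398 TPM). In the 1 hr control it was at 27.6 and 30.3 TPM, above both BRM014 libraries.

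Sqstm1, the autophagy adaptor p62, was at 242 TPM against 3519 and 3322 TPM, with 1928 and 2017 TPM in the 1 hr control. Rcan1 was at 20.4 TPM against 283 and 268 TPM, with 332 and 315 TPM at 1 hr. Hilpda, a lipid droplet gene, was at 5.28 TPM against 101 and 82.2 TPM, with 97.8 and 105 TPM at 1 hr. All 3 were lower at 4 than at 1 hr in control cells and high at 4 hr with BRM014. Olr1, an oxidised LDL receptor gene, was at 5.34 TPM against 106 and 118 TPM, above the 28.9 and 23.8 TPM of the 1 hr control.

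Other large rises were in no early class of the LPS response that is described next. Srxn1, which repairs peroxiredoxins, was at 9.58 TPM against 413 and 437 TPM (5.33 ± 0.14, adjusted p = 6.842e-09), above the 44.7 and 39.8 TPM at rest. Polr2g, an RNA polymerase II subunit gene, was at 32.6 TPM against 651 and 704 TPM, with 64.8 and 59.4 TPM at rest. Both rose above rest as well as above control. Pdxk, pyridoxal kinase, was at 2.15 TPM against 98.8 and 80.1 TPM but at 125 and 126 TPM at rest, and did not pass against resting cells. Rassf5, a RAS effector gene, was at 1.32 TPM against 58.3 and 54.3 TPM, above the 38.01 and 33.6 TPM at rest. Tmem267 was at 0.596 TPM against 21.8 and 21.1 TPM. Mir6367, Mir5620 and Snord104 met the rule for the largest rises too, but they are short genes with 1 to 9 reads in a BRM014 library and 0 in the control.

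Genes were next sorted by the LPS response of experiment 2 control cells, which share no library with the BRM014 comparison. Transient genes were higher by at least 1 (log2) at 1 hr and then at least 1 lower at 4 than at 1 hr. Early genes that did not change by that much afterwards were sustained, those that went up further were still rising, and late genes were up by at least 1 at 4 hr only. Each step needed an adjusted p below 0.05 on deposited TPM, without the rule of both scalings. On deposited TPM the median gene changed by -0.48 from 1 to 4 hr in these cells, and by -0.08 on scaled TPM. That shift favours the transient over the still rising class. Of 196 transient genes 79 rose with BRM014 at 4 hr (40.3%) and 20 fell (10.2%), with a median of 0.58. Of 811 late genes 54 rose (6.66%) and 461 fell (56.8%), with a median of -0.61. Among all tested genes 29.3% rose and 16.4% fell, with a median of 0.43. Early and still rising genes fell in 64.2% of 109 cases and early and sustained genes in 42.2% of 225. The classes were added after results were seen, and the difference between them was not tested.

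Genes that lipid A lowered in experiment 3 had the opposite balance to those it induced. These classes also used deposited TPM alone, with an adjusted p below 0.05. The median gene changed by -0.75 from 0 to 4 hr on that scale and by -0.18 on scaled TPM. That shift favours lowered over induced genes. Of 4086 genes lower by at least 1 at 4 hr, 1729 rose with BRM014 (42.3%) and 214 fell (5.24%). Of those 1729, 1003 were still below rest, 620 did not pass against rest and 106 were above it. Of 1066 induced genes 87 rose (8.16%) and 637 fell (59.8%). Of the 637 that fell, 430 were still above rest, 131 did not pass and 76 were below it.

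At 60 min, in the separate libraries of experiment 4, 1954 of 11549 genes rose with BRM014 (16.9%) and 1557 fell (13.5%). At 20 min 7 rose (0.0606%) and 38 fell (0.329%). On deposited TPM alone limma called 3958 genes at 60 min, and 2528 without control replicate 1 or 6294 without BRM014 replicate 2. It called 54 at 20 min, 22 without either BRM014 library of that time, 23 and 24 without its control replicates 1 and 2, and 459 without either 60 min BRM014 library. The 20 min count thus moved more than 2 times with 1 library left out.

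Early induced genes were mostly low at 60 min. Transient genes had fallen in 56.2% of 192 cases, early and sustained genes in 73.8% of 221 and early and still rising genes in 78.7% of 108. Late genes had fallen in 28.3% of cases and all 10865 genes tested at both times in 13.9%. In the transient class 108 genes fell at 60 min, 79 rose at 4 hr and 47 did both. The share of those 108 that rose at 4 hr was close to the 40.3% of the whole class. Over all genes tested at both times 282 fell at 60 min and rose at 4 hr, which is 18.7% of the 60 min falls and 8.71% of the 4 hr rises. Both lay below the shares over all genes, of which 29.3% rose at 4 hr and 13.9% fell at 60 min. Genes that fell at both times numbered 581 (38.5% of 60 min and 32.7% of 4 hr falls), and 834 rose at both (45.3% and 25.8% of rises). Time and experiment cannot be told apart in these counts.

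**Figure D2:**
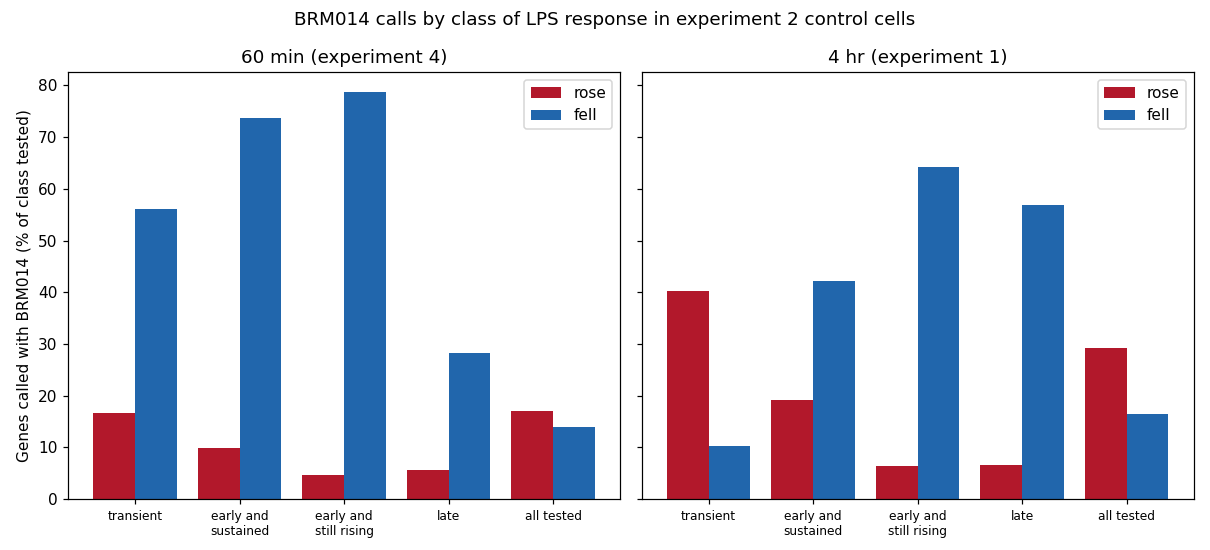
Share of genes that rose (red) or fell (blue) with BRM014 in each class of LPS response, in percent of tested genes, at 60 min in experiment 4 (left) and at 4 hr in experiment 1 (right); the last pair of bars is all tested genes. Of transient genes 56.2% fell at 60 min and 40.3% rose at 4 hr, whereas 56.8% of late genes fell at 4 hr.

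Ifnb1 was at 988 and 688 TPM in the 60 min controls and 153 and 135 TPM with BRM014 (-2.51 ± 0.15, adjusted p = 2.143e-08). The BRM014 libraries lay below both controls at 60 min and above the control at 4 hr. Il23a was at 23.2 and 24.2 TPM against 4.84 and 4.31 TPM at 60 min, likewise the reverse of 4 hr. Tlr2, a receptor gene for bacterial lipopeptides, changed from -3.00 ± 0.09 at 60 min to 3.33 ± 0.13 at 4 hr, when it was at 140.1 TPM against 1404 and 1426 TPM. The integrin gene Itga5 changed from -2.01 ± 0.08 to 2.68 ± 0.09, and the histone demethylase gene Kdm6b from -2.01 ± 0.14 to 2.36 ± 0.18. Plau, which codes urokinase, and the phosphatase gene Dusp5 were also lower at 60 min (-1.20 ± 0.09 and -0.70 ± 0.14) and higher at 4 hr (2.89 ± 0.11 and 3.34 ± 0.21).

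Il12b, the p40 subunit of interleukins IL-12 and IL-23, was low at both times. It was at 41.97 and 37.9 TPM against 1.32 and 1.05 TPM at 60 min and at 114 TPM against 9.13 and 8.85 TPM at 4 hr. Acod1, the itaconate synthase gene, was lower at 60 min (-3.90 ± 0.18) and at 4 hr (-3.00 ± 0.16), when it was at 4947 TPM against 594 and 642 TPM. The signalling adaptor gene Traf1 was lower too (-3.56 ± 0.14 and -2.38 ± 0.17). In these genes no BRM014 library reached a control of its time. Cd69, a lectin of activated leukocytes, went the other way, from 1.56 ± 0.22 to -5.50 ± 0.18, and was at 550.4 TPM against 11.2 and 11.1 TPM at 4 hr. The AP-1 gene Jun changed from 2.04 ± 0.12 to -1.66 ± 0.11.

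**Figure D3:**
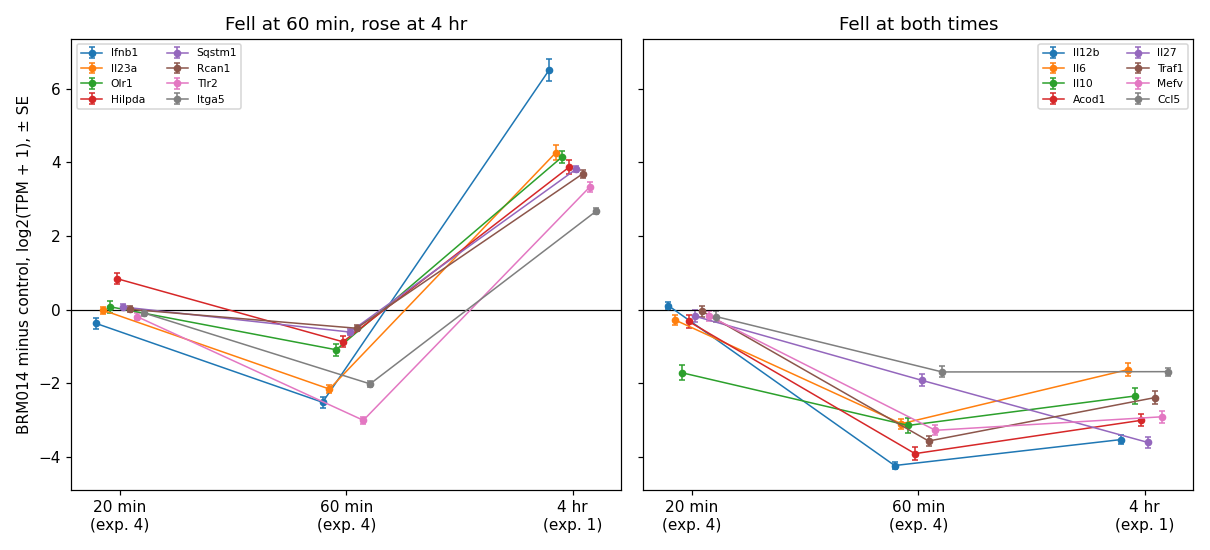
BRM014 minus control on the log2(TPM + 1) scale at 20 and 60 min (experiment 4) and at 4 hr (experiment 1) for 16 genes chosen for their pattern, with bars of 1 standard error. Left, genes below 0 at 60 min and above 0 at 4 hr, such as Tlr2 (-3.00 ± 0.09 and 3.33 ± 0.13); right, genes below 0 at both times, such as Il12b (-4.23 ± 0.10 and -3.52 ± 0.13).

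By function, of 33 cytokine genes tested 10 rose and 11 fell at 4 hr, where 29.3% and 16.4% of all tested genes did, with a median of 0.07 on deposited and -0.24 on scaled TPM. Il27, a subunit of interleukin 27, was at 1022 TPM against 81.1 and 85.4 TPM, Il6 at 410.0 TPM against 124 and 141 TPM (adjusted p = 0.1076 in limma with a pseudocount of 0.1), and Il10, the anti-inflammatory cytokine gene, at 195 TPM against 40.5 and 34.8 TPM. Tnf was higher, at 968 TPM against 1918 and 2146 TPM (1.07 ± 0.14). At 60 min 20 of 28 had fallen and 3 had risen, against 13.5% and 16.9% of all genes tested at that time. Among 22 chemokine genes 1 rose and 12 fell, with a median of -0.53. Ccl7, a monocyte attractant, was at 1727 TPM against 54.2 and 61.4 TPM and Ccl12, which acts on the same receptor, at 961 TPM against 66.7 and 67.98 TPM. Cxcl10, an interferon-induced T cell attractant, was at 7404 TPM against 8444 and 9240.4 TPM and did not pass (0.25 ± 0.21, adjusted p = 0.3109), although it had fallen at 60 min (-1.15 ± 0.25). Leaving out either resting library of experiment 1 brought its adjusted p in limma to 0.01279 or 0.01264, and on scaled TPM its difference was -0.24.

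Receptors for attractants and metabolites fell in 16 of 29 cases and rose in 3. Other innate receptors fell in 13 of 28 cases and rose in 5. Over all tested genes 16.4% fell and 29.3% rose. The nucleic acid sensor genes Tlr8 and Tlr9 were at 131 TPM against 6.61 and 6.23 TPM and at 32.02 TPM against 2.34 and 2.002 TPM, and their resting levels were 197 and 156 TPM and 52.01 and 47.1 TPM. Both thus lay below control and rest. Tlr6, a partner of TLR2, was at 38.3 TPM against 4.16 and 4.97 TPM. Tlr2 rose, as did the beta-glucan receptor gene Clec7a, which was at 41.97 TPM against 269 and 312 TPM.

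Interferon-induced genes were counted in 2 lists. Of 15 guanylate-binding and immunity-related GTPase genes, which act against intracellular microbes, 8 fell and 1 rose, with a median of -0.72. Gbp6 was at 103 TPM against 3.65 and 5.78 TPM and Gbp4 at 151 TPM against 6.26 and 11.5 TPM. Of 41 antiviral interferon-stimulated genes 7 rose and 8 fell, with a median of 0.29 on deposited and -0.20 on scaled TPM. The other 26 did neither, and over all tested genes 29.3% rose and 16.4% fell. Isg15, a ubiquitin-like modifier gene, was at 1977 TPM against 7434 and 8061 TPM and Ifit3b at 115 TPM against 794 and 955 TPM. Ifi44 was at 181 TPM against 32.6 and 45.8 TPM and the exonuclease gene Isg20 at 327 TPM against 88.6 and 97.8 TPM. The first pair lay above control in both BRM014 libraries and the second below it.

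Macrophage identity genes fell in 19 of 35 cases and rose in 2, with a median of -0.37. Of all tested genes 16.4% fell and 29.3% rose. Fcgr2b, the inhibitory Fc receptor gene, was at 1905 TPM against 143 and 129.9 TPM, with 678 and 594 TPM at rest. Fcgr3, an activating Fc receptor gene, was at 1374 TPM against 248 and 242 TPM, with 1346 and 1272 TPM at rest. The transcription factor gene Maf was at 598 TPM against 28.7 and 29.8 TPM, with 282 and 349 TPM at rest. All 3 lay below rest with BRM014. In bulk RNA fewer cells of a type and less RNA per cell cannot be told apart.

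Acute phase and iron genes fell in 9 of 20 cases and rose in 4, where 16.4% of all tested genes fell and 29.3% rose. Cp, ceruloplasmin, was at 419 TPM against 7.59 and 8.97 TPM, and Lcn2, a siderophore-binding lipocalin, at 112 TPM against 5.19 and 6.57 TPM. The heme oxygenase gene Hmox1 was at 107 TPM against 730.0 and 707 TPM and was also higher at 60 min (2.29 ± 0.09). Of 22 matrix protease and inhibitor genes 7 fell and 3 rose, with Mmp14, a membrane-anchored collagenase, at 162 TPM against 2.94 and 3.37 TPM. In the arginine, nitric oxide and itaconate list 7 of 17 fell and 4 rose, among them the NADPH oxidase subunit gene Ncf1, which was at 263 TPM against 1074 and 1154 TPM.

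By the rule of both scalings, rises (29.3% of all tested genes) were more frequent than falls (16.4%), which bears on the counts for biosynthesis genes. That order depends on the scaling. Scaled TPM alone gave 3382 higher and 3202 lower genes, and voom on recovered reads gave 2386 and 3104. Of 34 ribosome biogenesis genes 19 rose and 3 fell, with a median of 0.94 on deposited and 0.58 on scaled TPM. Nhp2, of the box H/ACA ribonucleoproteins, was at 20.8 TPM against 138 and 120.2 TPM, and the rRNA methyltransferase gene Nop2 at 5.16 TPM against 21.2 and 20.8 TPM. Cytosolic ribosomal protein genes rose in 8 and fell in 3 of 33 cases. The nucleolin gene Ncl did not pass on deposited TPM (0.06 ± 0.12, adjusted p = 0.6594) and was lower on scaled TPM (-0.43). Of 13 RNA polymerase II subunit genes 5 rose and 0 fell by the rule of both scalings. Polr2g had the largest change among these 13, followed by Polr2d, which was at 7.59 TPM against 25.2 and 24.4 TPM. EGR, NR4A and other immediate early genes rose in 16 of 32 cases and fell in 5, and NRF2 antioxidant targets in 11 and 5 of 23.

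**Figure D4:**
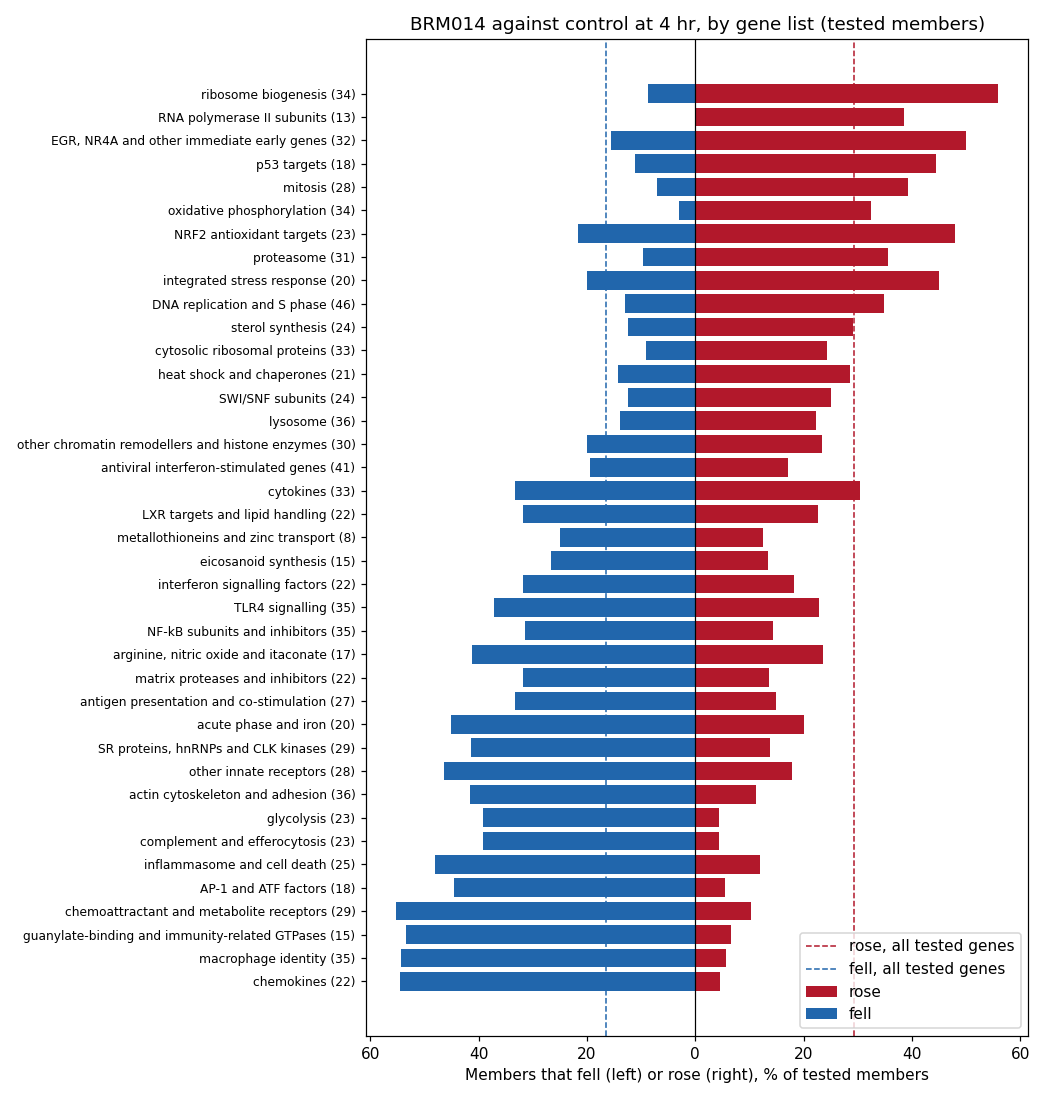
Members of each gene list that rose (right, red) or fell (left, blue) with BRM014 at 4 hr, in percent of tested members, whose number stands in brackets; dashed lines mark the shares over all tested genes (29.3% and 16.4%). Chemokines had 12 of 22 fallen and ribosome biogenesis genes 19 of 34 risen.

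BRM014 was also set against the other compounds at 4 hr, in 2 direct comparisons without the control library. Doses are not given in the sources used here, so it is not known whether they were matched. Against ACBI1, 2013 genes were higher (17.5%) and 1627 lower (14.1%). Nos2 was at 538 and 597 TPM with ACBI1, above the single control of 501 TPM, and at 7.75 and 9.31 TPM with BRM014 (-5.90 ± 0.15). Saa3 was at 1179 and 1127 TPM with ACBI1 (-4.60 ± 0.38), and AW112010, a long RNA gene, at 1925 and 1555 TPM (-4.88 ± 0.16). The BRM014 libraries lay below both ACBI1 libraries in all 3. Ifnb1 was at 230.2 and 161 TPM with ACBI1, below BRM014 (2.42 ± 0.24). For Il6, at 155 and 120.2 TPM with ACBI1, no difference was called (-0.04, 95% interval -0.38 to 0.29). Late genes were lower with BRM014 than with ACBI1 in 48.6% of cases, and transient genes higher in 35.7%.

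Against BRDK98, 2543 genes were higher with BRM014 (22.1%) and 2614 lower (22.7%). Srxn1 was at 14.9 and 18.5 TPM with BRDK98 (4.60 ± 0.12) and Sqstm1 at 211 and 219 TPM (3.98 ± 0.07), both below BRM014. Ifit1bl1 was at 638 and 664 TPM (-6.28 ± 0.33), far above BRM014. No difference was called for Saa3, at 28.4 and 31.98 TPM with BRDK98 (0.61, 95% interval -0.32 to 1.54). The same held for Mmp14, at 2.85 and 2.57 TPM (0.16, 95% interval -0.46 to 0.79). These intervals do not show that the compounds act alike.

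Because the control is 1 library, levels were set beside the 2 control libraries of experiment 3 at 4 hr, whose table was scaled separately. Deposited TPM was used, on which the median tested gene was 0.43 (log2) higher with BRM014 than with control. That shift favours risen over fallen genes in this check, and no share over all tested genes is given. Of the 3382 risen genes 94.6% had both BRM014 libraries above both experiment 3 controls, and of the 1889 fallen genes 78.7% had both below. All 79 risen transient genes lay above both. Nos2 (628 and 128 TPM), Mmp13 (4518 and 856 TPM) and Saa3 (2615 and 2549 TPM) lay far above the BRM014 libraries in both. Il6 (231 and 58.5 TPM) and Il10 (125 and 29.4 TPM) did not, since 1 of those controls lay below both BRM014 libraries. The experiment 3 controls differed widely from each other in Nos2, Mmp13, Il6 and Il10. Standard errors of the 4 hr comparison do not include that spread and may be too small for such genes. In the authors' deposited table, whose header lists the control library in duplicate, 98.4% of the fallen and 71.4% of the risen genes have the same sign and an adjusted p below 0.05, and 0 the opposite sign. That comparison rests on the same control library, so the shared signs are no check of it.

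RefSeq promoter windows (250 bases before to 50 after the gene start, GRCm38.p6) were matched to 8808 of the 11531 tested genes. The median window held 21 CpG, and 10.9% of windows held at most 5. Among fallen genes 18.9% held at most 5 CpG, and among risen genes 6.01%, while the medians of 20 and 22 CpG were close. Of 200 genes that fell by at least 2 (log2) 37.0% held at most 5, with a median of 9 CpG. Of 171 that rose by at least 2, 9.36% did, with a median of 22. With 0 to 2 CpG, 30.6% of 372 genes fell and 12.9% rose. With 11 to 20, 13.3% of 2513 fell and 32.9% rose, and with 21 or more, 15.9% of 4528 fell and 31.8% rose. The windows of Mmp13 and Fpr1 hold 1 CpG each, and those of Srxn1 and Rcan1 hold 26 and 14. Other strongly changed genes go against the pattern. The windows of the risen genes Ifnb1, Rassf5 and Olr1 hold 3, 5 and 7 CpG, and those of the fallen genes Fabp3 and Edn1 hold 22 and 11.

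Among genes induced by experiment 3's lipid A, 68.3% of 82 genes with 0 to 2 CpG fell, 66.1% of 109 with 3 to 5, 49.0% of 98 with 6 to 10, 54.8% of 157 with 11 to 20 and 60.9% of 368 with 21 or more. Short motifs were searched on both strands. The AP-1 motif TGANTCA was in 5.03% of all windows, 6.45% of fallen and 4.42% of risen genes. GAGGAAG, a core that PU.1 binds, was in 13.9%, 17.8% and 11.9%. TATAAA was in 7.05%, 8.55% and 6.59%. Some other motifs searched had the opposite order. CCAAT was in 38.4%, 34.1% and 40.3%, and TTTNNCGC, searched as an E2F motif, in 8.92%, 7.39% and 10.4%. Within the induced genes the AP-1 motif was in 7.41% of 486 that fell and 9.23% of 65 that rose. With so few risen genes each of these shares rests on few windows. In the same 2 groups TATAAA was in 10.9% and 10.8%, and GAGGAAG in 18.9% and 13.8%. AGTTTCNNT, searched as an interferon response element, was in 8.02% and 13.8%, and GGGANTTTC, searched as an NF-kB motif, in 2.06% and 0%. A match describes letters and is not a binding site, and these shares were not tested.

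**Figure D5:**
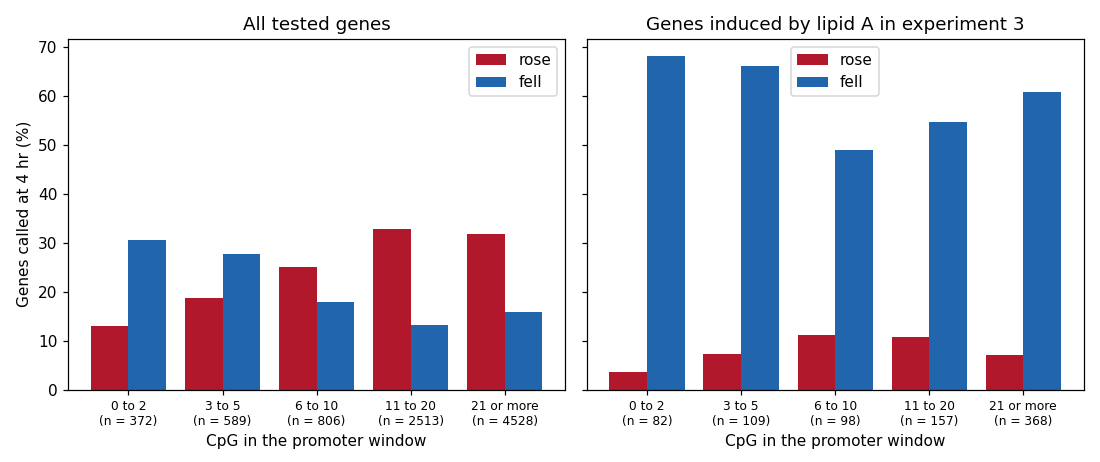
Share of genes that rose (red) or fell (blue) with BRM014 at 4 hr by the number of CpG in the promoter window, for all tested genes with a window (left) and for genes induced by lipid A in experiment 3 (right). Over all genes the share that fell was highest at 0 to 2 CpG (30.6%) and lowest at 11 to 20 (13.3%), with 15.9% at 21 or more, and among induced genes it was highest at 0 to 2 (68.3%) and lowest at 6 to 10 (49.0%).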

How the data were processed

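Polyadenylated RNA of BMDMs was measured in bulk from a stranded kit with single-end reads, per the labels' protocols. The submitters' processing notes name STAR 2.5.3a, HOMER and mm10. Exonic reads were counted on both strands, per the file headers. The authors deposited TPM tables, and their comparison table gives log2 fold changes and adjusted p-values of the authors' own test. TPM and transcript length returned whole reads (within 0.1 read), which gave depths. 1 column of values belonged to no sample.

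A gene entered with at least 1 TPM in 2 or more libraries. limma 3.58.1 (R 4.3.3) was run on log2(TPM + 1) over all groups of a table, with trend and robust moderation (5 residual degrees of freedom in experiment 1 and 9 in experiment 4) and Benjamini-Hochberg adjustment. The procedure was tested on simulated data. Members, lists, classes and rules were chosen with earlier results of these data known. Named genes are reference genes, the 15 largest changes each way above 10 TPM, and the largest called and most abundant uncalled members of each list; Csf1r, Adgre1, Spi1, Fcgr1, Mertk, Cd14, Kdr and Cdh5 were named after their values were seen, and some genes that met the rule are not reported here. Alternatives were another pseudocount, no low-value filter, plain moderation, median scaling, voom on recovered reads, a minimum change, only the 3 libraries compared, a replicate block, other classes and leaving out each library. The 4 hr control library could not be left out.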

Additional observations from a re-analysis of the deposited data

Results flagged for a closer look

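For 16 genes named in the text both BRM014 libraries of 60 min lay below both controls and both of 4 hr above the control, with calls at both times. The 60 min differences (log2) were -0.392 for Tnf, -2.511 for Ifnb1, -0.4576 for Rassf5, -2.152 for Il23a, -1.086 for Olr1, -0.8697 for Hilpda, -0.6058 for Sqstm1 and -0.5024 for Rcan1. They were -3.0 for Tlr2, -2.012 for Itga5, -2.008 for Kdm6b, -1.201 for Plau, -1.069 for Cd14, -0.7034 for Dusp5, -0.6245 for Ncf1 and -0.3715 for Clec7a. Cd69, Jun and Tra2a had the reverse order, above control at 60 min (2.04 for Jun, 1.562 for Cd69 and 0.5468 for Tra2a) and below it at 4 hr. The 2 times come from separate experiments, and the difference between them was not tested. Over all genes 18.7% of the 60 min falls rose at 4 hr, fewer than the 29.3% of all tested genes that rose.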

How the results depend on the processing

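The 4 hr control is 1 library, and no alternative can show how far its own deviation sets a call. With voom on recovered reads, which does not ask for calls on both scalings, 3104 genes were lower at 4 hr. The rule of both scalings gave 1889, and scaled TPM alone gave 3202. With a minimum change of 1 (log2) the 4 hr calls were 3311 in all, with 1128 risen and 865 fallen. Leaving out each library gave 2528 to 6294 calls at 60 min and 22 to 459 at 20 min. With the replicate block, 4 hr calls were 7522 against 7459, and 3377 rose and 1851 fell; the replicate numbers did not pair the samples (correlations of deviations -0.04 to 0.17 in experiment 1 and -0.24 to 0.24 in experiment 4). Counts of transient and late genes stayed within 1.5 times the values given in every alternative run, with class membership held as set on deposited TPM. Ncl turned from 0.06 to -0.428 with median scaling and -0.4583 with voom; the scaling shifts all genes. Low genes such as Fpr1 are limited by reads.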

Other observations

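Chromatin and cell cycle genes were also counted at 4 hr, when 29.3% of all tested genes rose and 16.4% fell. The histone methyltransferase gene Ezh2 was at 5.89 TPM against 32.8 and 30.9 TPM, whereas the acetyltransferase gene Kat2b was at 34.3 TPM against 5.25 and 5.82 TPM. Of 28 mitosis genes 11 rose and 2 fell. Cenpa, the centromeric histone gene, was at 8.06 TPM against 53.7 and 41.1 TPM, and the spindle gene Tpx2 at 22 TPM against 3.87 and 3.45 TPM. Among 46 replication genes 16 rose and 6 fell, with Pcna, the replication clamp, at 69.3 TPM against 589.5 and 528 TPM. Glycolysis genes fell in 9 of 23 cases and rose in 1, and oxidative phosphorylation genes rose in 11 of 34 and fell in 1. The phosphofructokinase regulator gene Pfkfb3 was at 314 TPM against 88.5 and 86.5 TPM. Of 29 SR protein, hnRNP and CLK genes 12 fell and 4 rose, with the splicing regulator gene Tra2a at 489.5 TPM against 99.9 and 109 TPM.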
